A study of Homo sapiens with 12 samples.

Results

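The genes described here are 40 genes of the G2 phase and mitosis, chosen by name and not by their values: the mitotic cyclins with CDK1 and its regulators, the mitotic kinases, and the genes of the spindle, the kinetochore, the spindle checkpoint, chromosome segregation and cytokinesis. They are 40 of the 23284 gene symbols listed and 40 of the 12946 that passed the filter on low values. RNA was sequenced from PANC-1, an established human pancreatic carcinoma cell line, in 12 libraries, 2 in each of 6 groups. All cells carried the same retroviral reporter, ZsGreen fused to the degron of ornithine decarboxylase (ODC), whose green fluorescence builds up where proteasome activity is low. Degron (++) libraries (ZsGreen++ in the labels) came from the brightest cells of a line that had been enriched for fluorescence by repeated sorting. Degron (−) cells were the infected line before that enrichment, with few fluorescent cells; their titles read ZsGreen– whereas their descriptions read d+, and the title was followed. Each population had an unirradiated group (0 Gy, 48 h) and 2 groups given 4 Gy of gamma rays from a cesium-137 source, at 30 h and at 48 h. No unirradiated library at 30 h was analysed here, and no label gives the start of the hours or tells whether the libraries of a group came from separate cultures, so p-values measure only the spread between these libraries. Each population is 1 infected line, and degron (++) went through repeated sorting and culture that degron (−) did not, so proteasome activity and line history cannot be told apart.

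Entry into mitosis is driven by CDK1 bound to cyclin B or cyclin A. WEE1 holds this kinase back by phosphorylation, CDC25 phosphatases release it, and Polo-like and Aurora kinases then assemble the spindle. The spindle checkpoint waits for attached kinetochores before the anaphase-promoting complex (APC/C), with CDC20, marks securin and cyclin B for destruction by the proteasome. The genes are repressed early in the cell cycle by the DREAM complex and activated late in it by the B-MYB-MuvB complex and FOXM1. After irradiation, cells lacking working p53, as PANC-1 cells are, rely mainly on arrest in G2.

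All 40 genes were read at 1 FPKM or more in all 12 libraries (FPKM is fragments per kilobase of exon, scaled to the mapped fragments of the library). Levels ran from 4.76 FPKM, the lowest value of CENPE, to 405 FPKM, the highest of CKS2. Averaged over 12 libraries and compared per length, the order was led by UBE2C at 308, CKS2 at 294 and CCNB1 at 251 FPKM; 9 genes had means over 100 and 3 under 20. The sum of FPKM in a library ran from 829654 to 916877 for degron (++) and from 707273 to 763064 for degron (−), MIR622 alone held 28.6% to 30.0% and 22.5% to 27.1% of it, and the relative depth read from the steps between low values was 0.857 to 1.16. The keratins KRT8, KRT18 and KRT19 were high in all libraries, at 667 to 2981 FPKM, as in an epithelial line. EPCAM was at 176 to 205 FPKM in degron (++) and 29.9 to 52.8 in degron (−), CDH1 at 62.8 to 66.6 and 6.56 to 12.8, and the mesenchymal VIM at 13.2 to 19.2 and 2376 to 2711, so the populations also differed in epithelial and mesenchymal markers, whose part in the results was not tested. Among the markers of blood cells, endothelium, islets and acini reported here, CD3E and GCG were listed at 0 in every library and the highest was CD14, at 1.92 FPKM in 1 degron (++) library.

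Promoters of G2/M genes are known for the cell cycle genes homology region (CHR), the element that the DREAM and MuvB complexes bind, and for CCAAT boxes, which the factor NF-Y binds. The CHR was searched as TTTGAA or TTTAAA and the CCAAT box as CCAAT, on both strands, in RefSeq promoter windows from 250 bases before to 50 bases after the start (GRCh38.p14). Of the 40 genes, 33 had a window and 7 did not (AURKA, BIRC5, TPX2, TTK, FOXM1, UBE2C and WEE1). A CHR match was found in 29 of these 33 genes, 87.9%, against 27.9% of the 27305 genes with a window. CCAAT was found in 27 of 33, 81.8%, against 39.7%, and both in 1 window in 22 of 33, 66.7%, against 11.2%. A CHR of either form was present in 6 of 7 genes that were higher in degron (++) under all 3 conditions and in 11 of 13 that were lower. CCAAT was present in 6 of 7 and 10 of 13. The form TTTGAA alone was in 3 of 7 higher and 10 of 13 lower genes, and TTTAAA in 3 of 7 and 4 of 13. These counts are of few genes and were not tested. The last 120 bases before the start are shown, 5′ to 3′ on the gene's strand and with CHR and CCAAT matches in capitals (TTCAAA and ATTGG are matches on the other strand), for 3 genes that were higher in degron (++), 2 that differed little and 3 that were lower, which were picked after their values were seen. A match is a description of the letters and not evidence of binding.
CCNB1 (higher in degron (++)), chr5:69167030-69167149 (+): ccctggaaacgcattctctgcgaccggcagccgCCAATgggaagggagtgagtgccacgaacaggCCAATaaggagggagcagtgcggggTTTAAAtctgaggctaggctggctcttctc
CKS2 (higher in degron (++)), chr9:89311075-89311194 (+): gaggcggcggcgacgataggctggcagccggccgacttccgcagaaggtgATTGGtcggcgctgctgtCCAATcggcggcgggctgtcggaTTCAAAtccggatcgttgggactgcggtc
KIF20A (higher in degron (++)), chr5:138178992-138179111 (+): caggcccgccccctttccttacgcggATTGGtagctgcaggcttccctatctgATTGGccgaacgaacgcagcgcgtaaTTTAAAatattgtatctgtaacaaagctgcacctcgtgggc
CCNB2 (differing little), chr15:59105026-59105145 (+): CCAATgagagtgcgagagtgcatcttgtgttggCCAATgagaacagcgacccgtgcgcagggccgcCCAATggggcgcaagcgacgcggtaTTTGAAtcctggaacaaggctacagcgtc
CDC20 (differing little), chr1:43358861-43358980 (+): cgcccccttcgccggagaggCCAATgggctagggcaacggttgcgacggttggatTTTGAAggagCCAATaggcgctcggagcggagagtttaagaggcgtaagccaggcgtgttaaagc
KIF4A (lower in degron (++)), chrX:70289984-70290103 (+): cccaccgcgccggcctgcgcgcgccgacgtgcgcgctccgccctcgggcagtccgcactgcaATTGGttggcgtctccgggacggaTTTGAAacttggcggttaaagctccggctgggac
KIF23 (lower in degron (++)), chr15:69414229-69414348 (+): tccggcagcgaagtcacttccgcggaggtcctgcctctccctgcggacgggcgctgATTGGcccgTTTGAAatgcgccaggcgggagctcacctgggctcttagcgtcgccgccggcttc
CENPA (lower in degron (++)), chr2:26785936-26786055 (+): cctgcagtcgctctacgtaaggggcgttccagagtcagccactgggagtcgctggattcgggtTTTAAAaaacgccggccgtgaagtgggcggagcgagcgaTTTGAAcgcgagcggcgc
The CCNB2 stretch holds 3 CCAAT boxes ahead of its CHR and that of CDC20 has a CCAAT box on each side of the CHR, while the CENPA stretch holds 2 CHR matches and no CCAAT.

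Degron (++) cells were first compared with degron (−) cells in unirradiated libraries at 48 h, to ask whether the mitotic genes differ between the populations before irradiation. They did not move as a block. Of the 40 genes, 10 were higher in degron (++) (25%), 20 were lower (50%) and 10 did not pass the threshold, an adjusted p under 0.05 by limma with Benjamini-Hochberg adjustment over all genes tested. Among all 12946 genes 37.6% were higher and 40.2% lower, so the populations differed widely and nothing particular to the mitotic genes is read from these shares. The median log2 fold change of FPKM + 1 was −0.17 for the 40 genes and −0.02 for all genes. In 4 Gy libraries at 30 h, 11 were higher (27.5%; 38.3% of all genes) and 18 lower (45.0%; 40.8%), with medians of −0.08 and −0.02. In 4 Gy libraries at 48 h, 9 were higher (22.5%; 37.1%) and 20 lower (50%; 39.6%), with medians of −0.17 and −0.01. The same shares of all genes stand beside the counts by role given below. Each role holds few genes, and nothing particular to a role is read from its counts.

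The direction of a gene was mostly the same under each condition. The 9 genes CCNB1, CCNA2, CKS2, CDC25B, UBE2C, NUF2, KIF20A, TOP2A and FOXM1 were higher in all 3 conditions (22.5%; 32.9% of all genes). The 16 genes WEE1, NEK2, BUB1, BUB1B, TTK, CENPA, CENPF, KIF11, KIF2C, KIF4A, TPX2, DLGAP5, KIF23, PRC1, ECT2 and ANLN were lower in all 3 (40%; 35.6%). Without regard to a fit, the 6 degron (++) values lay above all 6 degron (−) values for the same 9 higher genes (34.1% of all genes), and below them for 17 genes, 42.5% (37.2%), which were the lower genes without NEK2 and with AURKB and PLK1. These directions depend on the scaling for the smaller differences: rescaling each library to a sum of 1000000 (TPM) moved the median over the same 12946 genes from −0.02, −0.02 and −0.01 to −0.21, −0.27 and −0.25 in the 3 conditions. The sum used for TPM includes MIR622, whose share was larger in degron (++), and rescaling without it was not run. The split of higher and lower mitotic genes with TPM became 5 and 28, 6 and 29, and 2 and 30. With quantile normalization it was 9 and 21, 10 and 23, and 7 and 24. The median of the 40 genes went from −0.17, −0.08 and −0.17 to −0.37, −0.36 and −0.43 with TPM rescaling, and to −0.16, −0.20 and −0.23 with quantile normalization. CKS2 and CDC25B were higher in all 3 conditions under either rescaling, and no other gene was with TPM. Lower in all 3 were 19 genes with quantile normalization, now with CDK1, AURKB, PLK1 and BIRC5 and without CENPF. With TPM rescaling they were 27, which also took in CENPF again and CCNB2, AURKA, MAD2L1, CDC20, PTTG1, NUSAP1 and MKI67. Unless a rescaling is named, thresholds passed or not passed by single genes are those for FPKM as deposited. In bulk libraries, fewer cells in G2 or mitosis and less RNA of a gene per cell cannot be told apart.

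**Figure D1:**
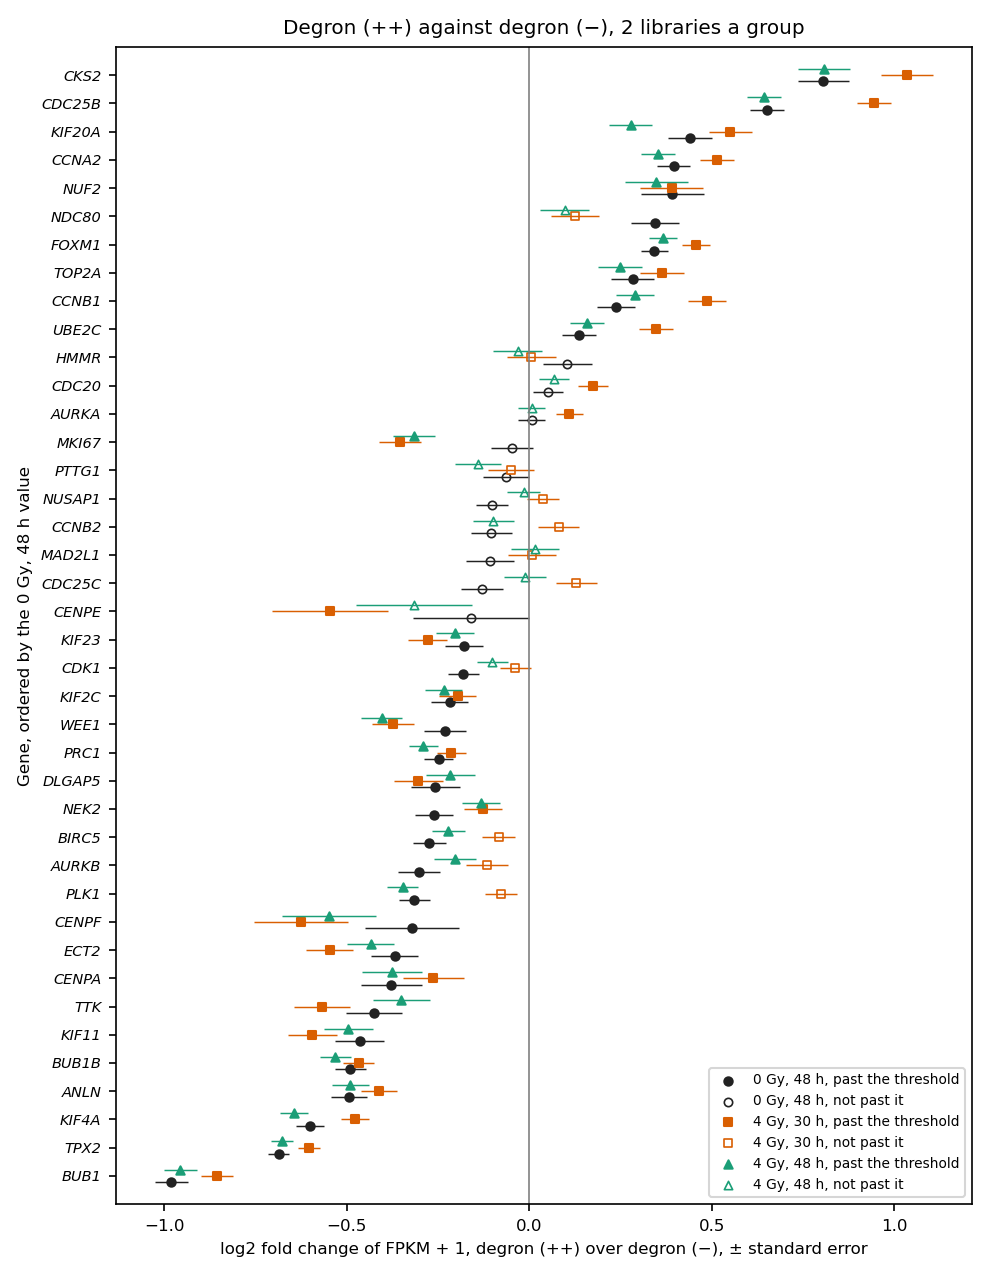
Log2 fold change of FPKM + 1, degron (++) over degron (−), for the 40 genes, ordered by the 0 Gy, 48 h value, with bars of 1 standard error (limma, 2 libraries a group); filled symbols are past the threshold and open ones are not. CKS2 and CDC25B stand at the upper end and BUB1 at the lower end in each condition, with these signs under each scaling tried, whereas the signs of AURKA, CDC20, UBE2C, TOP2A and other genes near 0 changed with TPM rescaling.

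Among the 8 genes of CDK1 and its regulators, 4 were higher in unirradiated degron (++) cells, 2 were lower and 2 did not pass the threshold. CKS2, a small subunit that binds cyclin-dependent kinases, showed the largest rise of the 40 genes. Its level in degron (++) libraries was 362 and 376 FPKM at 0 Gy, 405 and 395 at 4 Gy and 30 h, and 377 and 376 at 4 Gy and 48 h. In degron (−) it was 205 and 216, 194 and 195 and 196 and 235. The populations did not overlap, and the log2 fold change was 0.81 (SE 0.0709, adjusted p = 5.91e-06) at 0 Gy, 1.04 (SE 0.0709, adjusted p = 9.71e-07) at 4 Gy and 30 h, and 0.81 (SE 0.0709, adjusted p = 6.46e-06) at 4 Gy and 48 h. CDC25B, the phosphatase that starts CDK1 activation at the centrosome, was at 68.7 and 71.5, 78.5 and 77.3 and 76.2 and 74.1 FPKM in degron (++) in the same order of conditions. Its degron (−) values were 46.1 and 42.5, 39.3 and 40.8 and 46.6 and 48.9. Again no value of one population reached the other, with log2 fold changes of 0.65, 0.94 and 0.64.

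CCNB1 encodes cyclin B1, whose binding activates CDK1 and whose destruction ends mitosis. It was at 252 and 252 FPKM in degron (++) at 0 Gy, 301 and 305 at 4 Gy and 30 h, and 289 and 285 at 4 Gy and 48 h. The degron (−) values were 222 and 206, 218 and 214 and 222 and 247, so the highest degron (−) library came within a few FPKM of the lowest degron (++) library. The difference was 0.24 (SE 0.0517, adjusted p = 0.00231) on the log2 scale at 0 Gy, and it fell to 0.03 (adjusted p = 0.686) with TPM rescaling. Cyclin A2 (CCNA2) was also higher, at 43.0 to 50.5 against 32.9 to 36.8 FPKM, although at 4 Gy and 48 h it was not past the threshold with TPM rescaling (0.10, adjusted p = 0.282). The second mitotic cyclin B, CCNB2, did not follow CCNB1: it was at 62.8 to 80.0 FPKM in degron (++) and 67.0 to 73.1 in degron (−), and it passed the threshold in none of the 3 conditions. CDK1 itself was lower in degron (++) at 0 Gy, with a log2 fold change of −0.18 (SE 0.0427, adjusted p = 0.00386), and did not pass the threshold at 4 Gy, where it did under either rescaling (−0.18 at 30 h and −0.21 at 48 h with quantile normalization, −0.32 and −0.36 with TPM). WEE1, the kinase that restrains CDK1, was lower in all 3 conditions, at 14.7 to 17.0 against 18.1 to 22.8 FPKM, while the phosphatase gene CDC25C overlapped, at 11.9 to 13.9 against 12.1 to 14.0.

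Of the 4 mitotic kinase genes, none was higher and 3 were lower at 0 Gy. AURKA, which matures centrosomes and builds the spindle, was almost level: its degron (++) values were 100.3 and 103 FPKM at 0 Gy, 112 and 118 at 4 Gy and 30 h, and 108 and 105 at 4 Gy and 48 h. Those of degron (−) were 101 and 102, 105 and 108 and 104 and 108. The log2 difference at 0 Gy was 0.01 (SE 0.0371), and only at 4 Gy and 30 h did it pass the threshold, at 0.11 (SE 0.0371, adjusted p = 0.0228), a sign that reversed with either rescaling and a call lost without degron (++) replicate 2 (adjusted p = 0.162) or degron (−) replicate 1 (adjusted p = 0.123). AURKB, the kinase of the chromosomal passenger complex, was at 66.2 to 78.5 FPKM in degron (++) and 81.9 to 90.8 in degron (−). PLK1, the Polo-like kinase, was at 65.2 to 80.1 against 80.3 to 87.3 FPKM. Both were lower at 48 h with and without irradiation. At 4 Gy and 30 h they did not pass the threshold as deposited but did under either rescaling, AURKB at −0.23 and −0.40 and PLK1 at −0.19 and −0.36 with quantile normalization and TPM. The AURKB call at 4 Gy and 48 h was lost without degron (++) replicate 1 (adjusted p = 0.0551). NEK2, which loosens the link between centrosomes, was lower in all 3 conditions, with log2 fold changes of −0.13 to −0.26, but the call at 4 Gy and 30 h was lost without any 1 of its 4 libraries (adjusted p 0.0605 to 0.203 by limma) and that at 4 Gy and 48 h without 3 of 4 (up to 0.278). BIRC5 (survivin), a passenger subunit, followed the pattern of AURKB and PLK1. In degron (++) it was at 63.5 and 66.0, 79.4 and 77.2 and 65.6 and 70.8 FPKM in the same order of conditions. In degron (−) it was at 78.9 and 78.1, 83.4 and 82.6 and 77.1 and 82.2. The values of the populations came closest at 4 Gy and 30 h, where the test was not passed (log2 fold change −0.08, adjusted p = 0.121) as deposited but was with quantile normalization (−0.20, adjusted p = 0.001) and TPM rescaling (−0.37, adjusted p = 0.00012).

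The spindle checkpoint genes were the group with the lowest median, −0.46 at 0 Gy, with 3 of 4 lower in each condition. BUB1, a kinase that recruits checkpoint proteins to kinetochores, had the largest fall of the 40 genes in each condition. Its degron (++) level was 32.6 and 32.8 FPKM at 0 Gy, 37.5 and 36.2 at 4 Gy and 30 h, and 33.3 and 30.5 at 4 Gy and 48 h. Degron (−) libraries were at 64.1 and 67.0, 67.5 and 67.4 and 63.3 and 62.1. The groups were far apart, and the log2 fold changes were −0.98 (SE 0.045, adjusted p = 7.87e-08), −0.85 (SE 0.045, adjusted p = 1.61e-07) and −0.96 (SE 0.045, adjusted p = 1.09e-07). BUB1B, which encodes the checkpoint inhibitor of CDC20 known as BUBR1, was at 29.6 and 28.5, 30.3 and 32.7 and 28.5 and 27.6 FPKM in degron (++). Its degron (−) values were 41.3 and 41.1, 44.4 and 43.4 and 40.5 and 41.5, again with no overlap. TTK, the kinase MPS1 at the head of the checkpoint, was at 18.3 to 22.4 against 28.1 to 31.6 FPKM. MAD2L1, the MAD2 subunit of the inhibitor, was the exception as deposited, at 38.2 to 50.4 FPKM in degron (++) and 41.4 to 49.6 in degron (−). It passed the threshold in no condition as deposited or with quantile normalization. With TPM rescaling MAD2L1 was lower in all 3 conditions (−0.31, −0.27 and −0.24).

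The 3 genes that act on the APC/C had small differences between populations. UBE2C, the ubiquitin-conjugating enzyme of the complex, was at 305 and 312 FPKM in degron (++) at 0 Gy, 358 and 358 at 4 Gy and 30 h, and 321 and 331 at 4 Gy and 48 h. The degron (−) values were 290.3 and 272, 292 and 269.9 and 287 and 297. It was higher by 0.14, 0.35 and 0.16 on the log2 scale, but the sign reversed with TPM rescaling at 0 Gy and at 4 Gy and 48 h, and with quantile normalization at 4 Gy and 48 h. At 0 Gy the call was lost without either degron (++) library or degron (−) replicate 2, with adjusted p up to 0.167, and at 4 Gy and 48 h without degron (++) replicate 2 (0.0669) or degron (−) replicate 1 (0.0702). CDC20, the activator of the complex, was at 183 to 217 against 182 to 196 FPKM and passed the threshold only at 4 Gy and 30 h (log2 fold change 0.17, adjusted p = 0.00369), a sign that TPM rescaling reversed. PTTG1 (securin), which holds separase inactive, was at 201 to 240.1 against 205 to 249.6 FPKM and did not pass in any condition as deposited. PTTG1 was lower in all 3 conditions with TPM rescaling (−0.27, −0.33 and −0.40) and in both 4 Gy conditions with quantile normalization (−0.21 and −0.29). Its near-identical copies PTTG2, at 23.7 to 32.0 FPKM, and PTTG3P, at 35.9 to 45.9, may share its reads, so the PTTG1 values are uncertain.

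**Figure D2:**
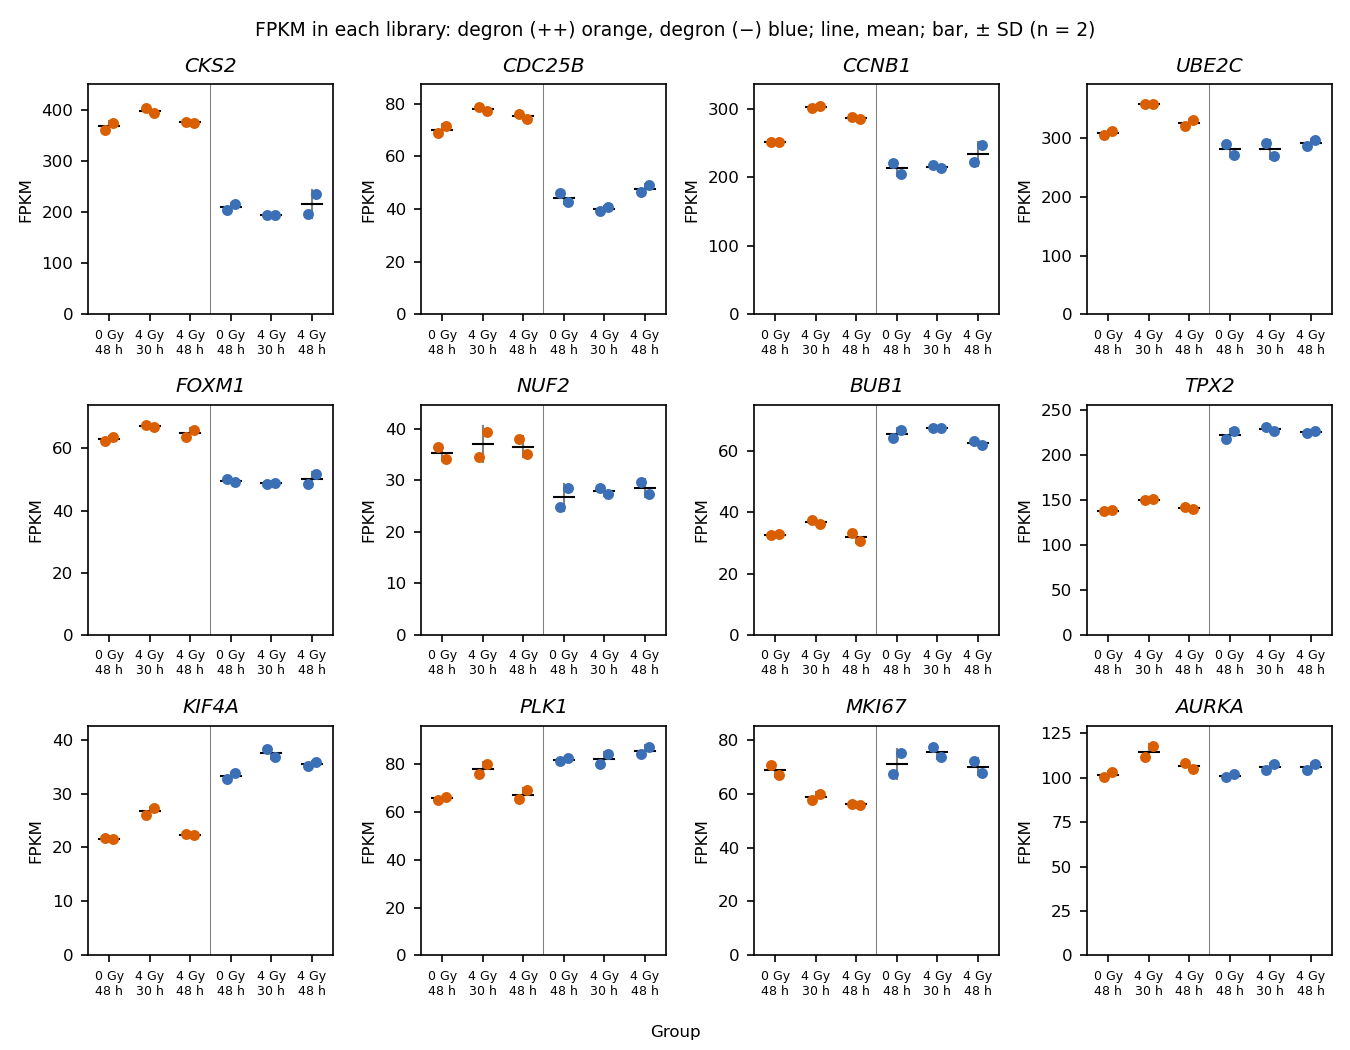
FPKM in each library for 12 of the genes (vertical axes in FPKM, starting at 0), with points for libraries, lines for the mean of 2 and bars for the SD; orange is degron (++) and blue is degron (−), at 0 Gy and 48 h, 4 Gy and 30 h, and 4 Gy and 48 h. CKS2 runs from 362 to 405 FPKM in degron (++) and from 194 to 235 in degron (−), BUB1 from 30.5 to 37.5 and from 62.1 to 67.5, and AURKA overlaps between the populations.

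The 5 kinetochore and centromere genes were split. NUF2 and NDC80, partners in the complex that grips microtubules, were the higher ones at 0 Gy, by 0.39 (SE 0.0858, adjusted p = 0.00244) and 0.34 (SE 0.0663, adjusted p = 0.00112) on the log2 scale. NUF2 was past the threshold at 4 Gy too and NDC80 was not. Neither was past the threshold with TPM rescaling. CENPA, the histone H3 variant that marks centromeres, was lower in all 3 conditions, at 27.8 to 35.5 against 36.8 to 42.1 FPKM, although the call at 4 Gy and 30 h was lost without degron (++) replicate 2 (adjusted p = 0.0988) or degron (−) replicate 1 (adjusted p = 0.0803). CENPF, a large kinetochore and nuclear matrix protein, was at 38.8 and 35.4 FPKM in degron (++) at 0 Gy, 31.2 and 30.6 at 4 Gy and 30 h, and 32.6 and 27.3 at 4 Gy and 48 h. In degron (−) it was at 41.4 and 52.2, 52.5 and 44.2 and 46.6 and 41.7. The degron (−) libraries were far apart at 0 Gy, and the fold changes carried a wide error, from −0.32 (SE 0.128, adjusted p = 0.045) at 0 Gy to −0.63 (SE 0.128, adjusted p = 0.00158) at 4 Gy and 30 h. The call at 0 Gy was lost without either degron (++) library (adjusted p = 0.0611 and 0.188) or degron (−) replicate 2, without which the log2 fold change was −0.16 (adjusted p = 0.313). CENPE, the kinetochore kinesin, was the least expressed of the 40 genes, at 4.76 to 6.50 against 5.81 to 9.27 FPKM, and passed only at 4 Gy and 30 h (log2 fold change −0.54, SE 0.159, adjusted p = 0.0111). That call was lost without degron (−) replicate 1 (adjusted p = 0.0871).

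Of the 7 spindle motor and microtubule genes, none was higher and 5 were lower in each condition. TPX2, which activates AURKA and nucleates spindle microtubules, was the most expressed of them. Its degron (++) values were 137 and 139 FPKM at 0 Gy, 149.9 and 151 at 4 Gy and 30 h, and 142 and 139.8 at 4 Gy and 48 h. Degron (−) libraries stood at 218 and 227, 231 and 226 and 225 and 227. The log2 fold changes were −0.69 (SE 0.03, adjusted p = 5.75e-08), −0.60 (SE 0.03, adjusted p = 1.14e-07) and −0.68 (SE 0.03, adjusted p = 7.51e-08), with no overlap, although its partner AURKA was almost level. KIF4A, a chromosome-bound kinesin, was at 21.7 and 21.5, 26.1 and 27.3 and 22.4 and 22.3 FPKM in degron (++). The degron (−) values of KIF4A were 32.7 and 33.8, 38.3 and 36.7 and 35.2 and 35.8. The log2 fold changes were −0.60, −0.48 and −0.64; its retrocopy KIF4B, at 4.18 to 7.95 FPKM, may share its reads. KIF11, the motor that pushes spindle poles apart, was at 27.8 and 26.5 FPKM in degron (++) at 0 Gy, 25.2 and 25.7 at 4 Gy and 30 h, and 24.3 and 22.3 at 4 Gy and 48 h. In degron (−) KIF11 was at 36.2 and 39.4, 40.5 and 37.4 and 34.8 and 31.8, above all degron (++) values. KIF2C, which takes microtubules apart at kinetochores, and DLGAP5, which stabilises kinetochore fibres, were lower in all 3 conditions, with log2 fold changes of −0.20 to −0.23 and −0.22 to −0.30. Calls were lost for KIF2C at 4 Gy and 30 h without degron (−) replicate 1 (adjusted p = 0.0533), and for DLGAP5 at 0 Gy without degron (−) replicate 2 (0.0532) and at 4 Gy and 48 h without degron (++) replicate 2 (0.0832) or degron (−) replicate 1 (0.0788). NUSAP1, a microtubule bundler, and HMMR, a spindle pole protein, overlapped between populations, at 56.2 to 60.5 against 58.0 to 64.5 and 29.02 to 34.5 against 28.2 to 35.1 FPKM.

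Of the 5 midzone and cytokinesis genes, 4 were lower and 1 was higher in each condition. ANLN (anillin), the scaffold of the cleavage furrow, was at 106 and 111 FPKM in degron (++) at 0 Gy, 111 and 121 at 4 Gy and 30 h, and 111 and 106 at 4 Gy and 48 h. In degron (−) it stood at 151 and 156, 157 and 151 and 156 and 149. The difference was −0.49 (SE 0.0498, adjusted p = 1.51e-05) at 0 Gy, with no overlap. ECT2, the exchange factor that switches on RhoA at the furrow, was at 37.2 to 42.2 against 52.6 to 59.8 FPKM, PRC1, the bundler of midzone microtubules, at 92.6 to 102 against 112 to 118, and KIF23, the midzone kinesin of centralspindlin, at 46.8 to 51.8 against 53.4 to 61.1. The KIF23 call at 0 Gy was lost without degron (++) replicate 1 (adjusted p = 0.0628) or degron (−) replicate 2 (adjusted p = 0.0845). KIF20A, the other midzone kinesin, went the opposite way. Its degron (++) values were 79.2 and 83.1, 90.1 and 87.1 and 82.0 and 84.4 FPKM in that order of conditions. Its degron (−) values were 61.9 and 57.3, 59.1 and 61.2 and 64.6 and 72.5. All degron (++) values were the higher ones, by 0.44 (SE 0.0596, adjusted p = 0.000115), 0.55 (SE 0.0596, adjusted p = 2.31e-05) and 0.28 (SE 0.0596, adjusted p = 0.00221), and the last of these was 0.02 (adjusted p = 0.783) with TPM rescaling.

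The proliferation markers did not move together either. TOP2A, the topoisomerase that untangles sister chromatids, was at 99.99 and 96.5 FPKM in degron (++) at 0 Gy, 99.7 and 104 at 4 Gy and 30 h, and 97.6 and 87.0 at 4 Gy and 48 h. In degron (−) it was 79.1 and 82.0, 81.8 and 76.5 and 79.1 and 75.7. TOP2A was higher in all 3 conditions, by 0.28, 0.36 and 0.25 on the log2 scale; with TPM rescaling it was past the threshold in none and the last value reversed, and with quantile normalization the last was not past it (0.15, adjusted p = 0.0728). MKI67 encodes Ki-67, which coats mitotic chromosomes. Its degron (++) values were 70.5 and 66.9 FPKM at 0 Gy, 57.6 and 60.0 at 4 Gy and 30 h, and 56.3 and 55.7 at 4 Gy and 48 h. The MKI67 values of degron (−) were 67.2 and 75.0, 77.1 and 73.7 and 72.1 and 67.7. The populations overlapped at 0 Gy (log2 fold change −0.05, adjusted p = 0.47), and MKI67 was lower in degron (++) at 4 Gy, with log2 fold changes of −0.35 (SE 0.0576, adjusted p = 0.000376) at 30 h and −0.31 (SE 0.0576, adjusted p = 0.000853) at 48 h. With TPM rescaling MKI67 was lower at 0 Gy too (−0.25, adjusted p = 0.0327 by limma). With quantile normalization it was not past the threshold there (−0.09, adjusted p = 0.247 by limma). FOXM1, the transcription factor of many of these genes, was higher in degron (++). It was at 62.5 and 63.8, 67.4 and 67.0 and 63.7 and 66.0 FPKM against 50.1 and 49.1, 48.4 and 49.0 and 48.5 and 51.7 in degron (−). Its log2 fold changes were 0.34 (SE 0.0377, adjusted p = 2.81e-05), 0.46 (SE 0.0377, adjusted p = 3.5e-06) and 0.37 (SE 0.0377, adjusted p = 1.87e-05), without overlap, and the last did not pass with TPM rescaling (0.11, adjusted p = 0.0747).

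**Figure D3:**
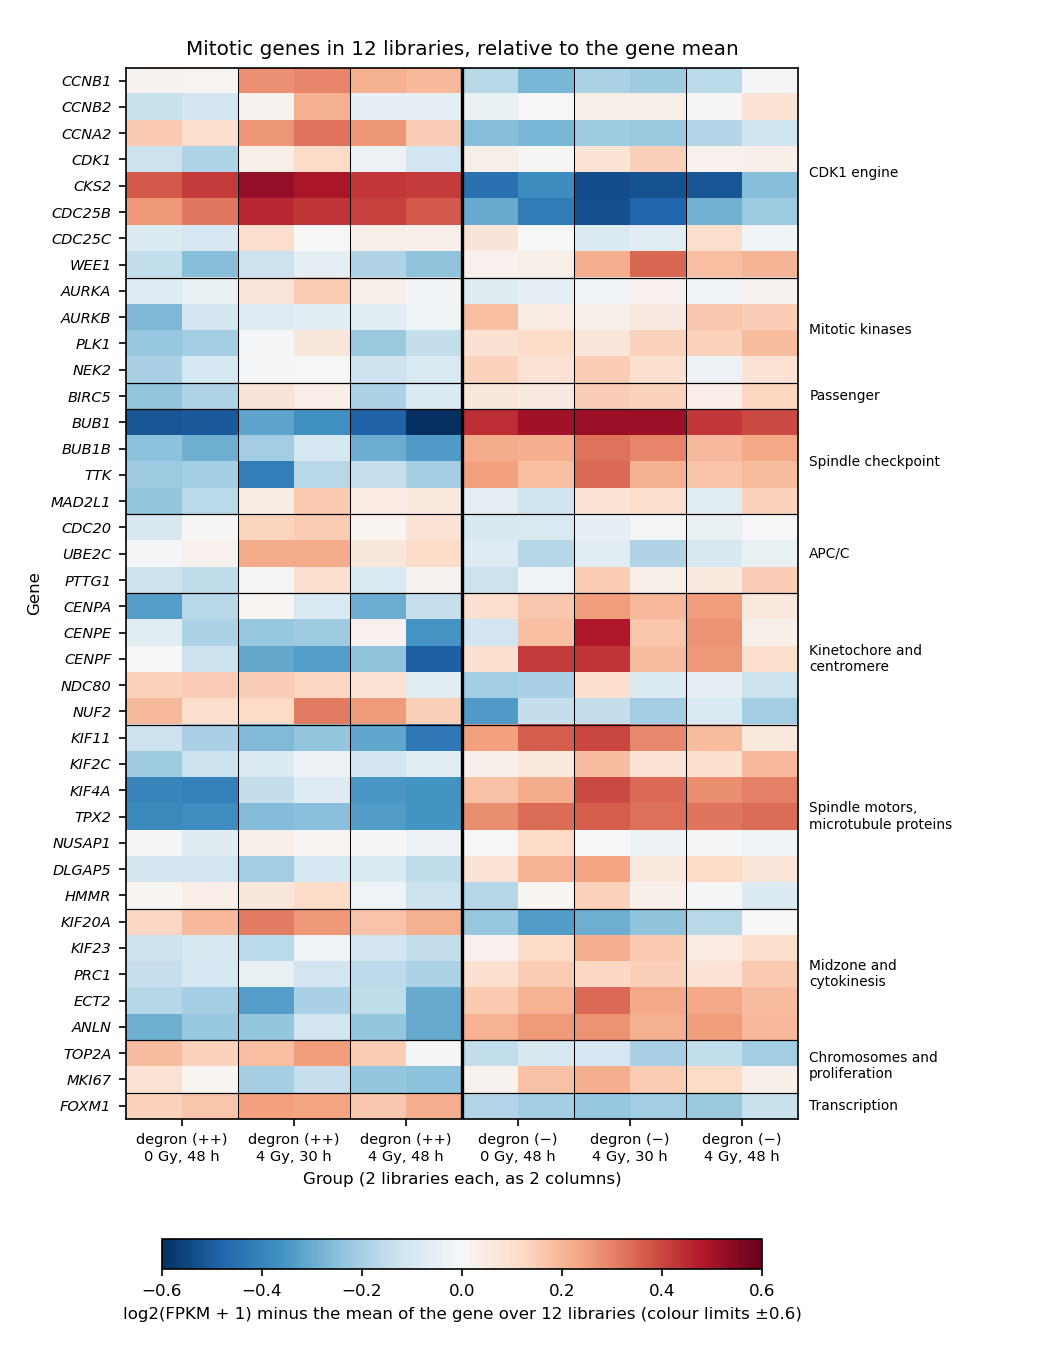
Log2(FPKM + 1) of the 40 genes in the 12 libraries, each minus the gene's mean over the 12 libraries, with rows grouped by role and 2 columns for each group; red is above and blue below the mean, with colours limited at ±0.6. CKS2, CDC25B, KIF20A and FOXM1 are red on the degron (++) side and BUB1, TPX2 and KIF4A blue, and within degron (++) the 30 h columns are redder than the 48 h columns for many genes.

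The dose comparison asked whether irradiated cells differed from unirradiated cells at 48 h. Few mitotic genes did. In degron (++) 1 of 40 genes passed the threshold (2.5%, against 1.82% of all genes), and 6 of 40 had an unadjusted p under 0.05 (17.6% of all genes). The gene past the threshold was MKI67, which fell from 70.5 and 66.9 to 56.3 and 55.7 FPKM, a log2 fold change of −0.29 (SE 0.0576, adjusted p = 0.0485 by limma). The call was lost without any 1 of the 4 libraries (adjusted p 0.114 to 0.248 by limma). No gene passed in degron (−) (4.73% of all genes, limma). There 7 of 40 had an unadjusted p under 0.05 (20.9% of all genes), and the smallest adjusted p was 0.102, of KIF20A. The interaction of dose and population, which tests whether the dose difference was unequal, was passed by none of the 40 genes (0.0772% of all genes), and 2 had an unadjusted p under 0.05 (13.6% of all genes). For MKI67 it was −0.27 (SE 0.0815, adjusted p = 0.211).

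With the dose differences averaged over both populations, 3 of 40 genes passed (7.5%; 7.2% of all genes). CCNB1 rose by 0.16 (SE 0.0365, adjusted p = 0.0357) on the log2 scale, from 252 and 252 to 289 and 285 FPKM in degron (++) and from 222 and 206 to 222 and 247 in degron (−). MAD2L1 rose by 0.19 (SE 0.0463, adjusted p = 0.0455). It was at 38.2 and 40.2 FPKM at 0 Gy, 46.5 and 50.4 at 4 Gy and 30 h, and 46.7 and 46.9 at 4 Gy and 48 h in degron (++), and at 43.2 and 41.4, 47.9 and 48.4 and 43.1 and 49.6 in degron (−). The degron (−) values at 0 Gy and at 4 Gy and 48 h overlapped. KIF11 fell, with a log2 fold change of −0.19 (SE 0.0472, adjusted p = 0.0445), and in both populations its 4 Gy values lay below its 0 Gy values at 48 h. The 3 calls were lost with TPM rescaling, under which none of the 40 genes passed, and without single libraries: that of CCNB1 in 6 of 8 cases, with adjusted p up to 0.104, KIF11 in 6 of 8, up to 0.138, and MAD2L1 in 7 of 8, up to 0.135. As a group the genes hardly shifted: the median of the 40 was 0.03 in each population, and in degron (++) it became −0.01 with quantile normalization and −0.04 with TPM rescaling. Both 4 Gy libraries lay above both 0 Gy libraries for 16 genes in degron (++) (40%; 24.6% of all genes) and for 13 in degron (−) (32.5%; 27.3%). Both lay below for 7 and 2 genes. With TPM rescaling 16 became 5 genes (12.5%, against 12.2% of all genes), and 12 lay below. Genes lying below were not counted over all genes tested, so nothing is read from those counts.

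**Figure D4:**
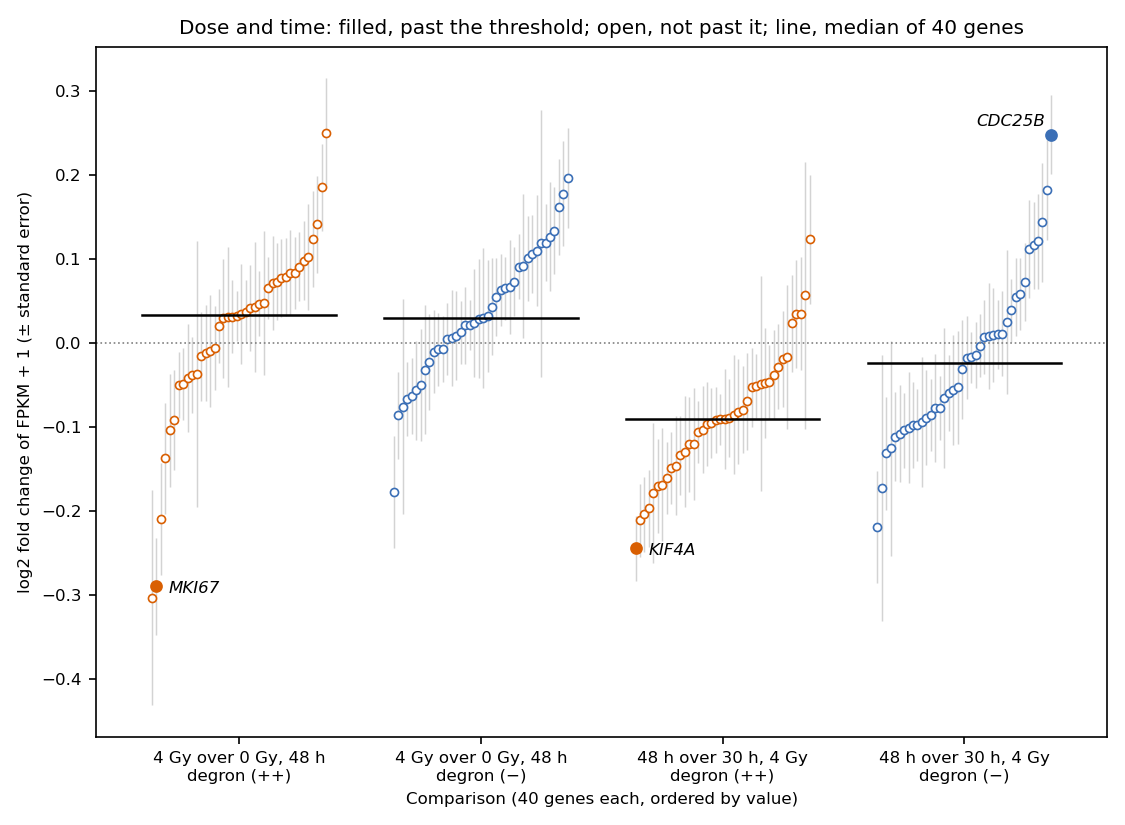
Log2 fold changes of FPKM + 1 (vertical axis) for the 40 genes at 4 Gy against 0 Gy at 48 h and at 48 h against 30 h after 4 Gy, in degron (++) (orange) and degron (−) (blue), ordered by value; bars are 1 standard error, filled points are past the threshold and black lines are medians. The 48 h to 30 h values of degron (++) centre on −0.09, the other 3 medians lie between −0.02 and 0.03, and the sign of the degron (++) dose median changed with either rescaling.

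The time comparison set 48 h against 30 h in cells given 4 Gy. It shares the 4 Gy, 48 h libraries with the dose comparison, so the 2 are not independent. In degron (++) the mitotic genes were mostly lower at 48 h. Both 48 h values lay below both 30 h values for 26 of 40 genes (65.0%, against 22.9% of all genes), and 14 overlapped. None went the other way, a direction not counted over all genes. The 26 were CCNB1, CCNB2, CDK1, CKS2, CDC25B and WEE1 of the CDK1 group, 3 kinase genes (AURKA, PLK1 and NEK2), BIRC5, BUB1 and BUB1B, CDC20 and UBE2C, CENPA and NDC80, 5 spindle genes (KIF11, KIF4A, TPX2, NUSAP1 and HMMR), KIF20A and PRC1, TOP2A and MKI67, and FOXM1. The count was 20 with quantile normalization (50%; 28.2%) and 23 with TPM rescaling (57.5%; 25.2%). The differences were small: the median was −0.09 on the log2 scale, against 0.00 for all genes. Only KIF4A passed the threshold (2.5%, against 1.21% of all genes), and 14 of 40 had an unadjusted p under 0.05 (15.8% of all genes). KIF4A went from 26.1 and 27.3 to 22.4 and 22.3 FPKM, a log2 fold change of −0.24 (SE 0.0386, adjusted p = 0.0295 by limma). Its call was lost without any 1 of the 4 libraries and with TPM rescaling (adjusted p = 0.212). At 0 Gy and 48 h KIF4A was at 21.7 and 21.5 FPKM. PLK1 went from 75.8 and 80.1 to 65.3 and 69.1 FPKM and BIRC5 from 79.4 and 77.2 to 65.6 and 70.8, with adjusted p = 0.0608 and 0.0904 by limma.

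In degron (−) 13 of 40 genes had both 48 h values below both 30 h values (32.5%, against 26.4% of all genes). Another 7 went the other way, a direction not counted over all genes, and 20 overlapped. The median was −0.02. Only CDC25B passed the threshold (2.5%, against 7.18% of all genes), with 4 of 40 at an unadjusted p under 0.05 (22.3% of all genes). It rose from 39.3 and 40.8 to 46.6 and 48.9 FPKM, by 0.25 (SE 0.0469, adjusted p = 0.0164) on the log2 scale. Without degron (−) replicate 1 at 30 h, replicate 2 at 30 h or replicate 2 at 48 h the adjusted p of CDC25B was 0.113, 0.0509 and 0.127, and without replicate 1 at 48 h it was 0.0308. In the mean of both populations 3 genes passed, all lower at 48 h (7.5%; 6.58% of all genes), with log2 fold changes of −0.16 (SE 0.0273, adjusted p = 0.0133) for KIF4A, −0.15 (SE 0.0318, adjusted p = 0.0275) for BUB1 and −0.13 (SE 0.0305, adjusted p = 0.0417) for BUB1B. With TPM rescaling none of the 3 passed (adjusted p 0.0915 for KIF4A, 0.0979 for BUB1 and 0.163 for BUB1B). Leaving out 1 of the 8 libraries ended the call of KIF4A once (adjusted p = 0.0532, without degron (−) replicate 1 at 30 h), and those of BUB1 and BUB1B in 7 of 8 cases, with adjusted p up to 0.0951 and 0.129. BUB1 and BUB1B had lower values at 48 h than at 30 h in each population, without overlap. So did CDK1, WEE1, NEK2, BIRC5, KIF11, KIF4A, HMMR and MKI67. Of the other spindle checkpoint genes, TTK overlapped in degron (++) and MAD2L1 in both populations.

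Whether the time difference itself was unequal between populations was tested as an interaction, which 1 of 40 genes passed (2.5%, against 3.23% of all genes). At an unadjusted p under 0.05 were 8 of 40 (17.9% of all genes). CDC25B was almost level from 30 h to 48 h in degron (++), with a log2 fold change of −0.05 (adjusted p = 0.657), and rose in degron (−), and the difference between these was −0.30 (SE 0.0663, adjusted p = 0.0487). The call was lost without any 1 of the 8 libraries (adjusted p 0.0599 to 0.166 by limma), with no filter (0.0664), quantile normalization (0.0806), TPM rescaling (0.0768), no trend (0.0827) and only the libraries compared (0.0619). PLK1 was just outside the threshold, at −0.27 (SE 0.0609, adjusted p = 0.0526). The counts of 26 and 13 genes were not compared with a test.

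Summed over the 40 genes, degron (++) libraries held 3161 and 3207 FPKM unirradiated, 3475 and 3548 at 30 h after 4 Gy, and 3292 and 3278 at 48 h after it. Degron (−) libraries held 3189 to 3374, so the sums overlapped. As a share of all FPKM in a library they did not, at 0.358% to 0.407% in degron (++) and 0.418% to 0.473% in degron (−). That total includes MIR622, which held 28.6% to 30.0% of it in degron (++) and 22.5% to 27.1% in degron (−). The separation does not hold without MIR622. Degron (++) replicate 2 at 4 Gy and 30 h held 3548 of 872142 FPKM in these genes, with MIR622 at 249146. Degron (−) replicate 1 at 0 Gy held 3189 of 763064 FPKM in them, with MIR622 at 192846. With MIR622 taken off both totals, the share of the degron (++) library is the larger. The highest of the 3 group means of a gene was that at 4 Gy and 30 h for 31 genes in degron (++), and for 23 in degron (−), where 15 more had theirs at 4 Gy and 48 h. These counts were not made over all genes, so nothing particular to the mitotic genes is read from them. The unirradiated libraries differ from the 30 h libraries in both dose and time, so these values stand side by side without a test.

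Other genes of the same machinery were read from 8 further lists, given as counts at 0 Gy and 48 h for degron (++) against degron (−). Among all genes tested 37.6% were higher and 40.2% lower, and nothing particular to a list is read from its counts. Of 22 further kinetochore genes, 4 were higher and 12 lower, with a median of −0.20. CENPI (−1.07, SE 0.0576, adjusted p = 2.14e-07), CENPW (−1.05), SKA3 (−0.84) and the checkpoint gene BUB3 (−0.67) had the largest log2 differences. Of 16 APC/C subunits and regulators, 3 were higher and 8 lower, with a median of −0.14: ANAPC2 (0.98) and CDC26 (0.86) were higher, and the inhibitor FBXO5 (−0.85) and ANAPC13 (−0.66) lower. The 12 further passenger and kinesin genes were split 5 to 6 around a median of −0.14, with CEP55, which recruits the abscission machinery to the midbody, at −1.26 and KIFC1 at −0.64, against KIF18A at 0.71 and KIF18B at 0.52. Of 12 cohesin genes, 3 were higher and 6 lower (median −0.14), led by the cohesin subunit RAD21 at 0.83. Condensin was split 4 to 3 of 8 genes (median 0.15), with SMC2 at 0.86. Of 13 genes of the MuvB and DREAM complexes, which repress and activate the mitotic genes, 3 were higher and 5 lower (median −0.10), with E2F5 at −1.02, LIN37 at −0.82, TFDP1 at 0.74 and E2F4 at 0.66. Of 24 DNA replication genes, which peak before mitosis, 11 were higher and 6 lower (median 0.10): CDC6 was at 0.93 and MCM4 at 0.62, while RRM2 was at −1.24 and TYMS at −0.67. With TPM rescaling, whose median over the 12946 genes was −0.21, this list had 7 higher and 9 lower genes and a median of −0.10.

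The G2 checkpoint list, of genes that act in this checkpoint or on the activity of CDKs in either direction, had 3 higher and 5 lower of 12 at 0 Gy (median 0.07). CDKN1A, which encodes the inhibitor p21, had the largest difference, at 5.82 and 6.80 FPKM in degron (++) against 64.1 and 59.7 in degron (−) (−3.11, SE 0.0877, adjusted p = 4.43e-09). SFN (14-3-3 sigma) was higher, at 0.98 on the log2 scale, as was CCNG2 at 0.76. GADD45A, a damage-induced inhibitor of CDK1, was lower in degron (++) (log2 fold change −0.75, SE 0.0847, adjusted p = 3.36e-05). With dose, 3 of the 12 genes rose at 48 h in degron (++), where 1.82% of all genes passed in either direction. In degron (−) 1 of the 12 rose, where 4.73% of all genes passed. The list was chosen with earlier results of these data known, so nothing particular to it is read from these counts. GADD45A, a member of both counts, rose from 15.7 and 18.1 to 28.2 and 26.5 FPKM in degron (++) (0.67, SE 0.0847, adjusted p = 0.014) and from 28.1 and 29.9 to 42.0 and 38.4 in degron (−) (0.46, SE 0.0847, adjusted p = 0.0223). In degron (++) that call was lost without 3 of the 4 libraries (up to 0.0978), and in degron (−) without any 1 (0.0696 to 0.103) and with TPM rescaling (0.0557). CDKN1A rose from 5.82 and 6.80 to 9.42 and 8.82 FPKM in degron (++) (0.47, SE 0.0877, adjusted p = 0.0413). PKMYT1, the membrane-bound relative of WEE1, rose from 58.5 and 60.8 to 69.2 and 70.3 in degron (++) (0.22, SE 0.0383, adjusted p = 0.0326). No gene of the list passed the interaction of dose and population. In the mean of both populations GADD45A was past the threshold also without any 1 library (adjusted p up to 0.0101) and with TPM rescaling (0.00711), whereas the calls of CDKN1A and PKMYT1 in degron (++) were lost with TPM rescaling (0.0798 and 0.168) and without any 1 of the 4 libraries.

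At 48 h against 30 h after 4 Gy, the medians of the 8 lists ran from −0.09 to −0.02 in degron (++), beside −0.09 for the mitotic genes and 0.00 for all genes, and only the kinetochore gene ZWILCH passed (log2 fold change −0.20, adjusted p = 0.0388). In degron (−), RRM2, the ribonucleotide reductase subunit, fell from 265 and 268 to 211 and 214 FPKM (−0.33, SE 0.0291, adjusted p = 0.000645), and UBE2S, the enzyme that extends ubiquitin chains on the APC/C, from 203 and 185 to 166 and 148 (−0.31, SE 0.0617, adjusted p = 0.0223). The kinetochore gene ZWINT fell there by 0.14 on the log2 scale (adjusted p = 0.0236).

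Transcript length was set beside the differences between populations. Among the 40 genes, the Spearman correlation of the log2 fold change of degron (++) over degron (−) with the length of the longest protein-coding transcript (GENCODE v29) was −0.33 unirradiated, −0.54 at 30 h after 4 Gy and −0.47 at 48 h after 4 Gy. Over the 11130 of 12946 tested genes with a length, 86.0%, it was 0.02, −0.02 and −0.02. The 9 genes higher in all conditions had a median length of 2797 bases (613 to 5758) and the 16 lower ones 3724 (1452 to 10307). The other 15, without a shared direction, had a median of 2248 (1070 to 12678). These are correlations across genes of the same libraries, which are not independent replicates, and a part of length in the differences was not tested.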

How the data were processed

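Total RNA was extracted with a column kit and made into stranded mRNA libraries. The authors deposited FPKM (fragments per kilobase of exon, scaled to mapped fragments) for 23284 gene symbols in each of 12 libraries. The submitters' processing notes name TopHat2 2.1.1, Bowtie2 2.2.8, SAMtools 0.1.18, Cuffdiff 2.2.1 and hg19; the annotation is not given in the sources used here. No counts were used, so absolute depth is unknown and no counting interval is given.

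From the FPKM, log2(FPKM + 1) was fitted with limma 3.58.1 in R 4.3.3 (6 group means over all 12 libraries, contrasts, eBayes with trend) for the 12946 genes at FPKM 1 or more in at least 2 libraries. The threshold was a two-sided Benjamini-Hochberg adjusted p under 0.05 over all genes tested. Fold changes on this scale understate those of low genes. The fit was tested on simulated data. Alternatives were quantile normalization or TPM rescaling of the libraries, eBayes without trend, a pseudocount of 0.1, a filter at FPKM 5 or none, a replicate block, fits on only the libraries compared and leaving out each library. Counts without overlap and list counts under both rescalings were added after the data were seen. Python 3.11.15, numpy 2.4.6, pandas 2.3.3 and matplotlib 3.10.9 were used for the other steps.

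The 40 genes and the other lists were chosen with earlier results of these data known. A cell type marker of these lists is not reported here. Values in every library were given for the most expressed gene of each role, in each comparison of populations the 3 genes highest and the 3 lowest among those past the threshold, and genes past the threshold with dose, time or an interaction. Of the other lists at most 4 genes a list were named in a comparison, those with the largest differences past the threshold. The values of PLK1 and the promoters printed were picked after the results were seen. Replicate numbers did not pair the libraries: over 15 pairs of groups the correlation of replicate differences was −0.04 to 0.12.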

Additional observations from a re-analysis of the deposited data

Results flagged for a closer look

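The change of CDC25B from 30 h to 48 h after 4 Gy differed between the populations by the interaction test, −0.30 on the log2 scale (SE 0.0663, adjusted p = 0.0487, limma with Benjamini-Hochberg adjustment). Its values were 78.5 and 77.3 FPKM at 30 h and 76.2 and 74.1 at 48 h in degron (++), and 39.3 and 40.8 at 30 h and 46.6 and 48.9 at 48 h in degron (−). All degron (−) values at 48 h lay above those at 30 h, and all degron (++) values at 48 h lay below those at 30 h. The adjusted p lay between 0.0599 and 0.166 when any 1 of the 8 libraries was left out. It was 0.0664 with no filter, 0.0806 with quantile normalization, 0.0768 with TPM rescaling, 0.0827 without trend and 0.0619 with only the libraries compared.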

How the results depend on the processing

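Counts of genes past the threshold between populations stayed within 1.5 times, and leaving out single libraries gave 27 to 31, 25 to 29 and 27 to 29 in place of 30, 29 and 29. Counts for dose and time were small and moved. For dose in degron (++), 1 became 0 with a pseudocount of 0.1, no filter, either rescaling, no trend, the replicate block, only the libraries compared and any library left out (0 to 0). For dose in both populations, 3 became 0 with no filter, TPM rescaling, no trend and only the libraries compared, 1 with quantile normalization and with the replicate block, and 0 to 3 without single libraries. For time in degron (++), 1 became 0 with TPM rescaling, no trend, only the libraries compared and any library left out (0 to 0). For time in degron (−), 1 became 0 with only the libraries compared and 0 to 3 without single libraries. For time in both populations, 3 became 5 with the filter at FPKM 5, 0 with TPM rescaling, 1 with only the libraries compared, and 0 to 2 without single libraries. For time by population, 1 became 2 with a pseudocount of 0.1 and with the filter at FPKM 5, 0 with no filter, either rescaling, no trend and only the libraries compared, and 0 to 1 without single libraries. The replicate block moved no other count of calls by over 1.5 times, and since replicate numbers did not pair the libraries nothing is read from it. The cause was not tested.

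Sign changes past the threshold neither before nor after rescaling are not listed, such as those of NDC80 at 4 Gy with TPM. Differences between populations that were past the threshold before or after a rescaling reversed in sign as follows. With TPM rescaling at 0 Gy they became −0.20 for AURKA, −0.16 for CDC20 and −0.0735 for UBE2C. At 4 Gy and 30 h they became −0.20 for CCNB2, −0.17 for AURKA, −0.27 for MAD2L1, −0.11 for CDC20, −0.24 for NUSAP1 and −0.27 for HMMR. At 4 Gy and 48 h they became −0.26 for AURKA, −0.24 for MAD2L1, −0.20 for CDC20, −0.10 for UBE2C and −0.0133 for TOP2A. With quantile normalization AURKA became −0.0087 at 30 h and −0.11 at 48 h after 4 Gy, and UBE2C −0.0123 at the latter. Of these, AURKA and CDC20 at 4 Gy and 30 h, UBE2C and TOP2A were past the threshold as deposited, and the others were past it only after rescaling. FPKM without counts gives no counting error, so precision rests on the 2 libraries of each group.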
